A study of Mus musculus with 4 samples.

Results

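Integrins are receptors for matrix proteins and for ligands on other cells, each built from 1 alpha and 1 beta chain. A resting integrin is bent and binds weakly, and signals from chemokine or antigen receptors open it through talin and kindlin, which bind the tail of the beta chain. In B cells, LFA-1 (Itgal with Itgb2) and VLA-4 (Itga4 with Itgb1) hold the cell to ICAM and VCAM ligands in the spleen and lymph nodes, and Itga4 with Itgb7 guides lymphocytes to the gut. RNA levels of 10 integrin chains were examined in sorted follicular B cells. The chains were named one by one, with no threshold on a measured value, but with earlier results of these data known. They are the 6 alpha chains Itgal, Itgam, Itgax, Itga4, Itga6 and Itgae and the 4 beta chains Itgb1, Itgb2, Itgb3 and Itgb7, and all 10 were found among the 23305 genes of the series.

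The 4 libraries were 2 biological replicates of WT and 2 of Ets1-/- cells, from spleens of female mice whose age the sources used here do not give. Ets1-/- mice carry a mutation of the Ets1 locus in every cell, so changes in the B cells themselves and changes brought about by other cells of the mouse cannot be told apart. WT mice were C57BL/6 and Ets1-/- mice C57BL/6 x 129Sv, so strain and genotype cannot be told apart either. Cells were kept if they carried B220, much CD23 and little CD21, and dropped if they carried CD80 or a switched isotype. The gate held no antibody to CD11b, the product of Itgam, or to any other integrin chain.

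Levels are FPKM, that is, fragments scaled by the length of the transcript and by the size of the library, which can be compared between genes. The number of fragments behind each value is unknown, and the low values allow only a rough estimate of relative depth, in which the deepest library, WT replicate 2, had 2.0 times the depth of the shallowest, Ets1-/- replicate 2. Fcer2a, which encodes the CD23 used in the sort, was abundant in all 4 libraries, between 488 and 664 FPKM. Of 10 B cell markers, 0 passed the thresholds used below and 0 had an unadjusted p under 0.05 in limma. Over all genes tested the shares were 1.70% and 13.3%. Ets1 itself was at 231 and 275 FPKM in WT and at 229 and 229.8 FPKM in Ets1-/- libraries, so the level over the whole gene does not check the genotype. The study reports from its RNA-seq that only the exons hit by the mutation had reduced or absent transcription in Ets1-/- cells. WT replicates lay closer together than Ets1-/- replicates, with a median absolute log2 difference of 0.13 against 0.26.

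Resting follicular B cells expressed a few integrin chains at high levels. In WT cells the order of the mean levels ran from Itgb7 through Itgb2, Itgal, Itga4, Itgb1, Itgb3, Itga6, Itgam and Itgax to Itgae, and the ranges of the 2 WT libraries did not overlap between any neighbours in that order. Itgb7 was the most abundant chain, and its mean over the 4 libraries, 147 FPKM, was at or above that of 97.55% of all genes. At the other end, Itgae had a mean of 1.21 FPKM. In Ets1-/- cells Itgb2 and Itgal overlapped, and Itgax, Itga6 and Itgae, the 3 lowest chains there, could not be ordered. Itga6 was above Itgam in both WT libraries and below it in both Ets1-/- libraries.

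**Figure D1:**
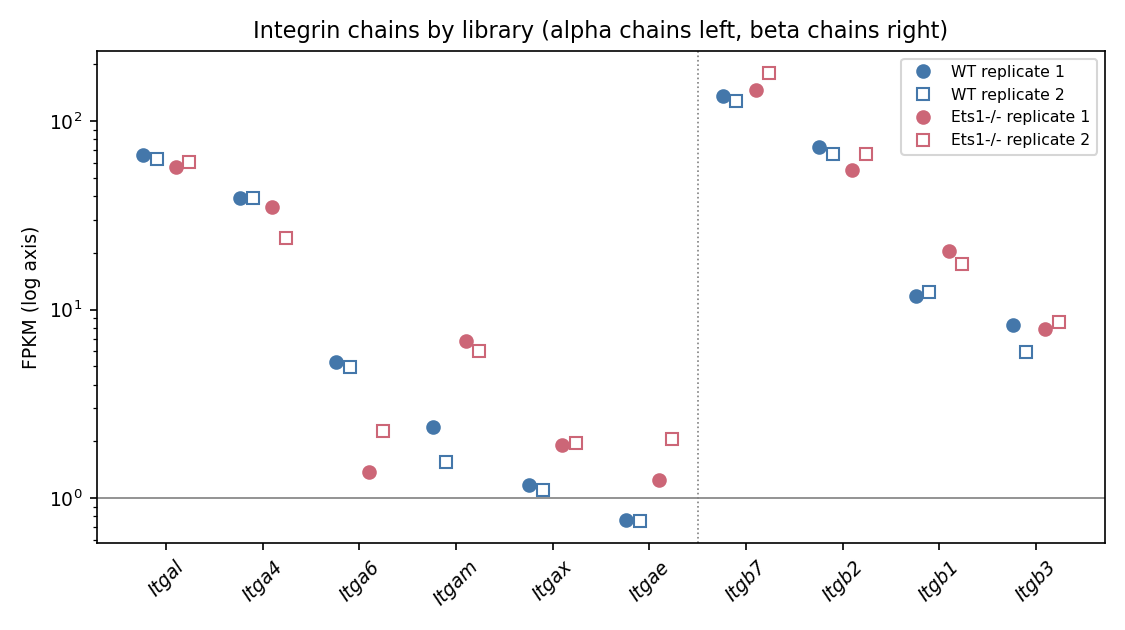
FPKM (log axis) of the 10 integrin chains in each library, alpha chains on the left and beta chains on the right, with WT in blue, Ets1-/- in red, circles for replicate 1 and squares for replicate 2. The line marks 1 FPKM, and Itgae lies under it in both WT libraries while Itgam and Itga6 change places between the genotypes.

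The comparison of Ets1-/- with WT cells asks which genes differ in level between the genotypes, which also differ in strain. It was made with limma on log2(FPKM + 1), and a gene was called when it differed by 1 or more on the log2 scale in either direction at an adjusted p (Benjamini-Hochberg) of 0.05 or less over the 10949 genes with a mean of at least 1 FPKM in either genotype. All 10 chains were tested, but Itgae entered through its Ets1-/- level alone. Of the 10 chains 0 were called, beside 1.70% of all genes tested. In the same limma fit Itgam, Itgax, Itgae, Itga6 and Itgb1, 5 of the 10, had an unadjusted p under 0.05, beside 13.3% of all genes. Because the chains were chosen with earlier results of these data known, these shares do not test them as a set. Both Ets1-/- libraries lay above both WT libraries for 5 chains, beside 19.4% of all genes, and below both for 3 chains, beside 22.2%. The median log2 fold change was 0.25 over the 10 chains and -0.02 over all genes tested.

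**Figure D2:**
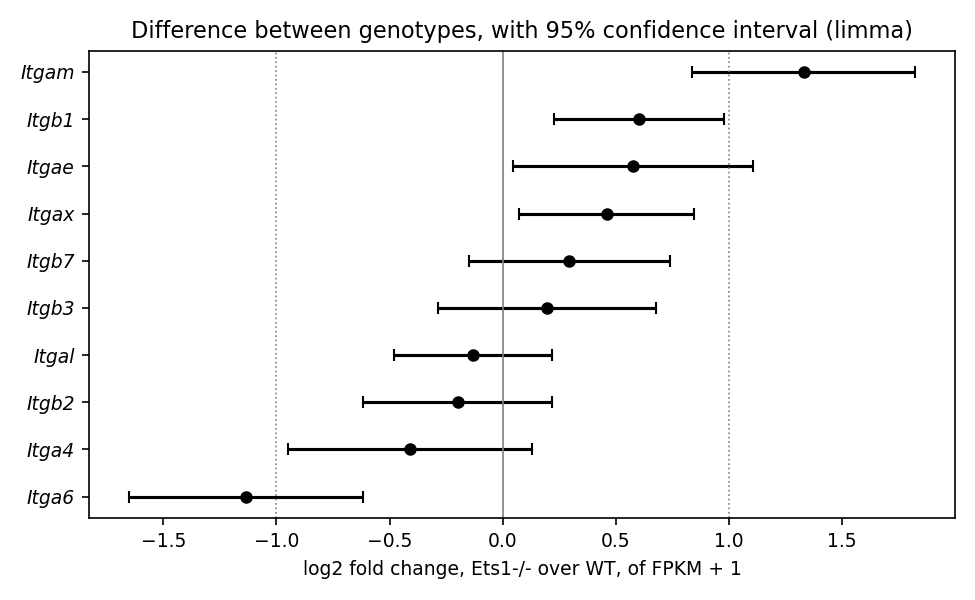
Log2 fold change of FPKM + 1 in Ets1-/- over WT cells for the 10 integrin chains, from limma over all 4 libraries, with 95% confidence intervals as bars and dotted lines at a 2-fold change. Itgam and Itga6 lie past the dotted lines on opposite sides, and the intervals of Itgb7, Itgb3, Itgal, Itgb2 and Itga4 include 0.

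Itgam encodes CD11b, the alpha chain of the complement receptor Mac-1, which pairs with Itgb2 and is best known from neutrophils, macrophages and NK cells. Its level was 2.37 and 1.56 FPKM in the WT libraries and 6.78 and 6.01 FPKM in the Ets1-/- libraries. The genotypes did not overlap, and the means were 1.96 ± 0.576 and 6.39 ± 0.544 FPKM (SD, n = 2), a ratio of 3.26. The log2 fold change of 1.33 (SE, the standard error, 0.19) was the largest in size of the 10 chains, and its adjusted p of 0.0507 from limma narrowly missed the threshold. Leaving out any 1 library gave log2 fold changes from 1.13 to 1.53, with adjusted p between 0.0721 and 0.186 in those limma fits. Without the trend of variance on expression it passed, at an adjusted p of 0.0472 in limma. With same-numbered libraries treated as pairs it passed too (adjusted p = 0.0245 in limma), though no pairing is stated. Itgam stands on the study's own list of Ets1 target genes linked to autoimmune disease. That list holds genes with a nearby Ets1 peak in ChIP-seq of WT B cells that also changed in these libraries. The study's own test, Cuffdiff, thus called Itgam higher in Ets1-/- cells. The expression difference here comes from the same libraries and is no independent evidence for that list. In mm9 the gene spans chr7:135206154-135271674 (plus strand).

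Itgax, which encodes CD11c of dendritic cells, also pairs with Itgb2 and lies next to Itgam, at chr7:135273061-135294171. It was low throughout, at 1.18 and 1.10 FPKM in WT and 1.92 and 1.96 FPKM in Ets1-/- libraries. Replicates of one genotype nearly coincided and the genotypes did not overlap, with a ratio of the means of 1.70. Its log2 fold change of 0.46 (SE 0.15) had a limma adjusted p of 0.268. Of the stretches of 50 bases in its transcripts, 9.63% also occur in the neighbouring Itgad, so part of its fragments may be shared with that gene. Itgad itself stayed under 1 FPKM in all libraries, at 0.662 and 0.356 FPKM in WT and 0.965 and 0.898 FPKM in Ets1-/- cells.

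For 5 of the 10 chains (Itgam, Itgax, Itga4, Itgb1 and Itgb7) RefSeq promoter windows of the GRCm38.p6 build were examined, each with 250 bases before and 50 bases after the annotated start. Ets1 binds DNA around a GGAA core, as do the related factors PU.1 and Fli1. The letters CCGGAA, as in the Ets1 consensus, were found on either strand in 14.9% of 32851 windows of this length, and GAGGAA, as in PU.1 sites, in 28.3%. The windows of Itgam, Itgax and Itgb1 are shown because these chains had an unadjusted p under 0.05 in the comparison above. Capitals mark CCGGAA and GAGGAA or their reverse complements, TTCCGG and TTCCTC, and all 3 windows read on the plus strand. They cover chr7:128062390-128062689, chr7:128129300-128129599 and chr8:128685404-128685703.
Itgam: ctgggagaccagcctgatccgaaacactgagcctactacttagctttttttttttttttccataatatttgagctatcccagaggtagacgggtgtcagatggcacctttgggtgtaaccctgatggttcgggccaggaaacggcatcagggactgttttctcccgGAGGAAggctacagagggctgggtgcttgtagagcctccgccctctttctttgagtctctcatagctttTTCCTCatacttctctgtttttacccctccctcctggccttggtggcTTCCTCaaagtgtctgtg
Itgax: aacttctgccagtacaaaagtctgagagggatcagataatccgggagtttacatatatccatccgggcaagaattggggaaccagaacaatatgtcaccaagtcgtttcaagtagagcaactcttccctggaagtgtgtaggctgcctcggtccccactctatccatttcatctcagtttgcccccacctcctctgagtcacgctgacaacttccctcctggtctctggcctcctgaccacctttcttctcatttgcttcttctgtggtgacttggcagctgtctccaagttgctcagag
Itgb1: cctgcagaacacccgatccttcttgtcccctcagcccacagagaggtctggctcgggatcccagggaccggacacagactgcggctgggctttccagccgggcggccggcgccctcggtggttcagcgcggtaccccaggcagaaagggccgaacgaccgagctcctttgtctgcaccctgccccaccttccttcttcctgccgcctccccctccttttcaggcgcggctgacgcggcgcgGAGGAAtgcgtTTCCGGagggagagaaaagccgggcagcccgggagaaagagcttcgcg

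The Itgam window holds GAGGAA 3 times, once as read and 2 times on the opposite strand, with first bases at -84, -15 and 33 relative to the start. In the Itgb1 window GAGGAA begins at -9 and CCGGAA, on the opposite strand, at 3. Neither set of letters occurs in the Itgax window or in that of Itga4, and the Itgb7 window holds GAGGAA 1 time, on the opposite strand. GGAA cores with other letters before them, which the Itgam, Itgax and Itgb1 windows also hold on one strand or the other, were not searched for or marked. These matches describe the letters of the windows and were not tested against the expression values.

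Itgb2, the beta chain shared by these receptors, was at 72.8 and 66.6 FPKM in WT and 54.8 and 66.9 FPKM in Ets1-/- libraries. The genotypes overlapped, and the log2 fold change of -0.20 had a 95% interval from -0.62 to 0.22. It was -0.057 without Ets1-/- replicate 1 and -0.34 without Ets1-/- replicate 2. Itgal, the alpha chain of LFA-1, was at 66.5 and 62.8 FPKM in WT and slightly lower, at 57.3 and 60.6 FPKM, in Ets1-/- cells. Its ranges did not overlap, but the log2 fold change of -0.13 had a 95% interval from -0.48 to 0.22 and a limma adjusted p of 0.822. Itgal lies at chr7:134439774-134478651 and Itgb2 at chr10:76992997-77028453 of mm9. Itgal and Itgb2 were close to equal in every library, with Itgal at 0.914 and 0.942 of the Itgb2 level in WT and 1.05 and 0.906 of it in Ets1-/- cells.

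Among the alpha chains that join Itgb2, Itgal supplied most of the RNA. Of the summed FPKM of Itgal, Itgam, Itgax and Itgad, Itgam made up 3.35% and 2.36% in WT and 10.1% and 8.65% in Ets1-/- libraries. The share of Itgax was 1.67% in both WT libraries and 2.87% and 2.83% in the Ets1-/- libraries. The shares of both chains were higher in each Ets1-/- library than in each WT library. A permutation test of 2 against 2 libraries cannot give a two-sided p under 0.333, so these shares were not tested.

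**Figure D3:**
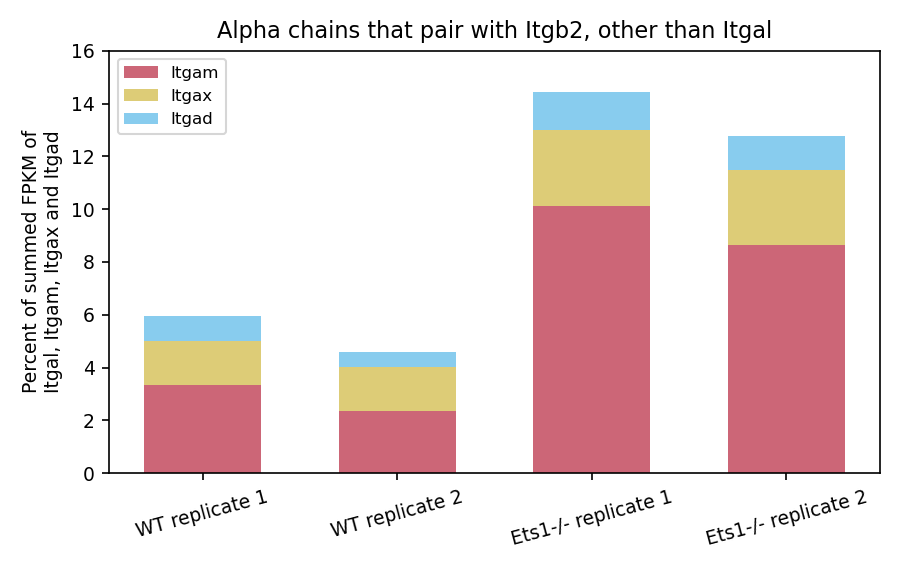
Percent of the summed FPKM of Itgal, Itgam, Itgax and Itgad that came from the last 3 genes, stacked, in each library; Itgal makes up the rest to 100%. Itgam accounts for most of the taller Ets1-/- bars.

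Itgam and Itgax are also expressed by cells that a sort of B cells can carry along, and in bulk RNA more cells of a type and more RNA per cell cannot be told apart. Neutrophil genes were higher in Ets1-/- cells, with 3 of 13 tested markers (Camp, Ngp and Ltf) called and 11 of 13 higher without overlap. Of all genes tested, 1.70% were called and 19.4% were higher without overlap. Mpo, Elane, Mmp8 and Mmp9 among them were tested only through their Ets1-/- level. The receptor genes Cxcr2 and Csf3r were the 2 whose genotypes overlapped. Ly6g, a further gene of that list, was not analysed here. The summed level of the neutrophil markers was 121 and 99.1 FPKM in WT and 2583 and 710 FPKM in Ets1-/- libraries. Between the Ets1-/- replicates this sum differed 3.64-fold and Itgam differed 1.13-fold. Without Ets1-/- replicate 1, the library with the most neutrophil RNA, the log2 fold change of Itgam was 1.26. Ets1-/- replicate 2 still held 710 FPKM of these markers, so that fit does not remove the neutrophil difference. No defining neutrophil marker was at 0 in any library, and the part of these cells in the Itgam level was not tested.

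Other myeloid genes differed unevenly. Beside the counts that follow, 1.70% of all genes tested were called and 13.3% had an unadjusted p under 0.05 in limma. Of 9 tested markers of monocytes and macrophages 1 was called, Adgre1, which encodes F4/80 and was at 2.35 and 2.63 FPKM in WT and 23.5 and 37.2 FPKM in Ets1-/- libraries. Csf1r, the growth factor receptor of macrophages, was at 2.35 and 1.00 FPKM in WT and 1.86 and 0.876 FPKM in Ets1-/- cells, so the genotypes overlapped. The list summed to 87.2 and 47.4 FPKM in WT and 172 and 111 FPKM in Ets1-/- cells. Of 4 tested dendritic cell markers 2 were called, Ccl22 and Cd209a, both of which were tested only through their Ets1-/- level, and the sum of that list was between 4.68 and 6.38 FPKM in WT and between 12.5 and 12.8 FPKM in Ets1-/- cells. Zbtb46, a transcription factor of classical dendritic cells, was between 0.533 and 0.558 FPKM in all 4 libraries. Xcr1, Clec9a and Clec10a were also under 1 FPKM and not tested. These 3 genes were higher in both Ets1-/- libraries, with ratios of the means of 2.08, 1.71 and 1.91. Of all genes tested, 19.4% were higher without overlap. Flt3, Siglech, Batf3 and Clec4a4, also of the dendritic cell list, overlapped between the genotypes. Of 9 NK cell markers 0 were called in limma and 4 had an unadjusted p under 0.05. These were Ncr1, Klrb1c, Prf1 and Klrk1, all lower in Ets1-/- cells and each tested only through its WT level. Of the 9 markers 5 were lower and 1, Eomes, was higher without overlap, beside 22.2% and 19.4% of all genes tested. The other 3, Nkg7, Gzmb and Klra8, overlapped. The 9 markers summed to 43.5 and 27.8 FPKM in WT and 21.5 and 30.9 FPKM in Ets1-/- libraries. Ncr1, which defines these cells, was at 2.42 and 0.957 FPKM in WT and 0.0224 and 0.128 FPKM in Ets1-/- cells. The part of these cells in the levels of Itgam, Itgax and Itgae was not tested.

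**Figure D4:**
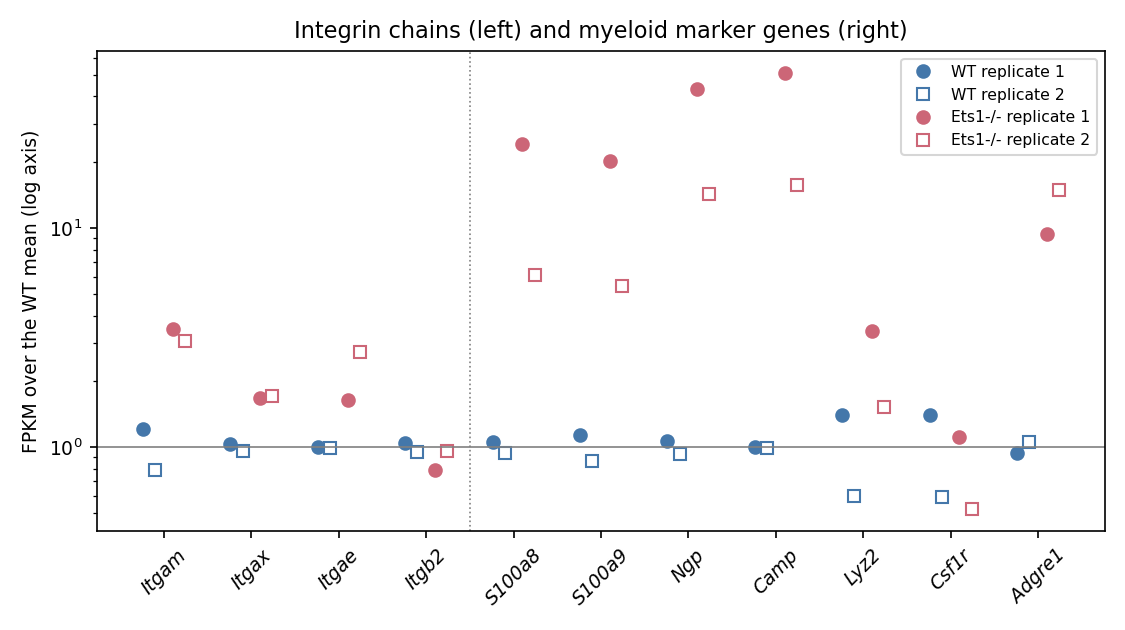
FPKM of 4 integrin chains and 7 myeloid marker genes in each library, divided by the WT mean of the gene (log axis), with WT in blue, Ets1-/- in red, circles for replicate 1 and squares for replicate 2. S100a8, S100a9, Ngp and Camp stand well apart between the 2 Ets1-/- libraries, while the Ets1-/- values of Itgam and of Itgax lie close together.

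Itga6 had the most negative log2 fold change of the 10 chains. It forms laminin receptors with Itgb1 or Itgb4. The level was 5.24 and 4.98 FPKM in WT and 1.37 and 2.26 FPKM in Ets1-/- libraries, without overlap, and the WT mean was 2.81 times the Ets1-/- mean. The log2 fold change of -1.13 (SE 0.20) had a limma adjusted p of 0.0772. It ranged from -1.37 to -0.90 with each library left out in turn. In mm9 it spans chr2:71583673-71696473 (plus strand).

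Itgb1, the beta chain of VLA-4 and of most matrix receptors, went the other way. It was at 11.8 and 12.4 FPKM in WT and 20.5 and 17.4 FPKM in Ets1-/- libraries, without overlap and with a ratio of the means of 1.57. Its log2 fold change of 0.60 (SE 0.15) had a 95% interval from 0.23 to 0.98 and a limma adjusted p of 0.154. The ratio of Itgb1 to Itga6 was 2.25 and 2.49 in WT and 14.9 and 7.70 in Ets1-/- libraries. In mm9 it spans chr8:131209554-131257100 (plus strand), and its promoter window is shown above.

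Itga4, which joins Itgb1 in VLA-4 and Itgb7 in the gut homing receptor, was at 39.0 and 38.9 FPKM in WT and at 35.2 and 24.0 FPKM in Ets1-/- libraries. Both Ets1-/- values were the lower ones, but they lay far apart from each other, and the log2 fold change of -0.41 had a 95% interval from -0.95 to 0.13 with a limma adjusted p of 0.538. Without Ets1-/- replicate 2 the log2 fold change of Itga4 was -0.14, and without Ets1-/- replicate 1 it was -0.68. Itga4 spans chr2:79095583-79173280 of mm9. Exons of Cerkl on the opposite strand cover 8.04% of the exon bases of Itga4, and the library kit is not stated to keep strand, so reads there cannot be assigned. Relative to Itgb1, Itga4 was at 3.30 and 3.14 in WT and at 1.72 and 1.38 in Ets1-/- libraries. The 4 ratios did not overlap between the genotypes.

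Itgb7 was at 136 and 127 FPKM in WT and 145 and 179.7 FPKM in Ets1-/- libraries. Its ranges did not overlap, yet the log2 fold change of 0.29 had a 95% interval from -0.15 to 0.74 and a limma adjusted p of 0.613. The Itgb7 value was 0.14 without Ets1-/- replicate 2 and 0.45 without Ets1-/- replicate 1. Itgae, the CD103 chain that binds E-cadherin and pairs only with Itgb7, was at 0.763 and 0.760 FPKM in WT and 1.25 and 2.07 FPKM in Ets1-/- libraries. Its Ets1-/- values were both higher and differed 1.66-fold from each other, and the log2 fold change of 0.58 (SE 0.21) had a limma adjusted p of 0.326. Leaving out Ets1-/- replicate 2 gave 0.35 for Itgae, and leaving out Ets1-/- replicate 1 gave 0.80. Itgb7 lies at chr15:102046426-102062366 (minus strand) and Itgae at chr11:72904085-72960948 of mm9. Itgb7 exceeded Itgb1 in every library, by 11.5-fold and 10.3-fold in WT and by 7.10-fold and 10.3-fold in Ets1-/- cells.

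Itgb3, the beta chain of the vitronectin receptor and of the platelet fibrinogen receptor, was at 8.34 and 5.99 FPKM in WT and 7.93 and 8.59 FPKM in Ets1-/- libraries. The genotypes overlapped, and the log2 fold change of 0.20 had a 95% interval from -0.29 to 0.68. Without WT replicate 2 its log2 fold change was -0.012, so the sign rests on that library. Itgb3 lies at chr11:104469370-104531790 of mm9. Of its partners, Itgav was at 4.35 and 5.0 FPKM in WT and 3.16 and 2.14 FPKM in Ets1-/- libraries (log2 fold change -0.65, adjusted p = 0.229 from limma), and Itga2b of platelets was between 0.461 and 0.713 FPKM. The 8 platelet markers together reached 1.60 to 2.96 FPKM. Only 1 of them, Gp1ba, was high enough to be tested, and it was not called. Gp1bb, a part of the platelet receptor for von Willebrand factor, was listed at 0 in WT replicate 1 and Ets1-/- replicate 2 and at 0.0209 and 0.0872 FPKM in the other libraries.

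Beyond the 10 chains, few other integrin genes were expressed. Of 16 further alpha and beta chains, 14 were under 1 FPKM in all 4 libraries, and the 2 tested, Itgav and Itga10, were not called. Among ligands, which follicular B cells may display to each other and to T cells, 5 of 19 genes were tested. In limma 0 of them were called and 2 had an unadjusted p under 0.05, beside 1.70% and 13.3% of all genes tested. Icam2 and Icam1, the ligands of LFA-1, were the highest, at 80.5 to 111 FPKM and 34.8 to 41.1 FPKM, and their genotypes overlapped. Complement C3, whose cleaved form is bound by Mac-1, was at 0.448 and 0.255 FPKM in WT and 3.75 and 1.38 FPKM in Ets1-/- libraries, with a limma adjusted p of 0.185. It was tested only through its Ets1-/- level. Lamc1, a laminin chain, was the other ligand gene with an unadjusted p under 0.05, at a log2 fold change of 0.43.

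Several genes of the machinery that opens integrins were abundant, while Tln2, Fermt1 and Fermt2 stayed under 1 FPKM in all libraries. Of 22 genes for activation and inside-out signaling 19 were tested. In limma 0 were called and 2, Rasgrp2 and Fermt3, had an unadjusted p under 0.05, beside 1.70% and 13.3% of all genes tested. Rasgrp2, the calcium-responsive exchange factor that loads Rap1, was at 151 and 167 FPKM in WT and 93.9 and 101 FPKM in Ets1-/- libraries, without overlap, with a log2 fold change of -0.70 (SE 0.15) and a limma adjusted p of 0.116. Fermt3, the kindlin of blood cells, was at 147 and 132 FPKM in WT and 87.3 and 113 FPKM in Ets1-/- libraries (log2 fold change -0.48, adjusted p = 0.368 from limma). Sipa1, which switches Rap1 off and was the most abundant gene of the list, had a log2 fold change of -0.46 and a limma adjusted p of 0.460. The median of the 19 genes was -0.18, and 7 of them were lower and 4 higher in Ets1-/- cells without overlap, beside 22.2% and 19.4% of all genes tested. Tln1, which encodes talin, was at 91.5 and 86.7 FPKM in WT and 70.6 and 87.0 FPKM in Ets1-/- libraries, which overlapped.

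Among genes that signal from bound integrins to the cytoskeleton, 16 of 20 were tested. In limma 0 were called and 2 had an unadjusted p under 0.05, beside 1.70% and 13.3% of all genes tested. Zyx, which encodes zyxin of focal adhesions, was at 37.1 and 31.8 FPKM in WT and 14.1 and 17.1 FPKM in Ets1-/- libraries, a log2 fold change of -1.10 (SE 0.17) with a limma adjusted p of 0.0554. Vcl, which encodes vinculin, was at 5.09 and 4.72 FPKM in WT and 10.4 and 8.83 FPKM in Ets1-/- libraries, with a log2 fold change of 0.84 and a limma adjusted p of 0.0785. For both genes the ranges of the genotypes did not overlap. Vasp and Ptk2b, the most abundant genes of the list, had log2 fold changes of -0.17 and 0.14, and the median of the 16 genes was -0.13.

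**Figure D5:**
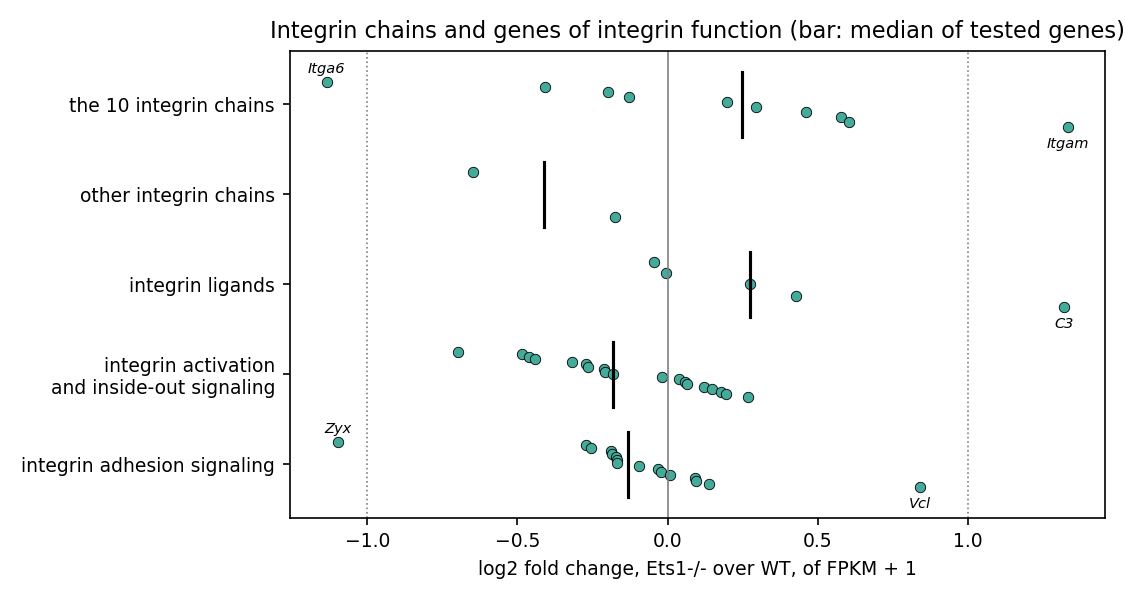
Log2 fold change of FPKM + 1 in Ets1-/- over WT cells for the tested genes of 5 lists, 1 point per gene, with the median of each list as a bar and dotted lines at a 2-fold change. Itgam, Itga6, C3 and Zyx lie past the dotted lines, and 0 genes of these lists were called.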

How the data were processed

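RNA-seq of sorted follicular B cells from 2 WT and 2 Ets1-/- samples was analysed. Reads had been aligned to mm9 with TopHat2 2.0.13, per the labels, and the authors deposited for each library 1 FPKM value per gene symbol from Cuffdiff; its annotation and scaling between libraries are not given in the sources used here. Of 23309 entries, 4 with repeated symbols were left out. Adjusted p-values are Benjamini-Hochberg values from limma 3.58.1 in R 4.3.3 on log2(FPKM + 1), fitted over all 4 libraries with the prior variance following mean expression (2 residual and 3.10 prior degrees of freedom). Adding 1 understates the change of low genes. Since same-numbered samples share no stated animal or day, no replicate block was used in the comparison. Each p-value sets the difference between genotypes against a variance. That variance joins the spread between these samples with the prior variance drawn from other genes.

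Relative depth was read from the commonest ratio among genes under 0.05 FPKM, which held for 28.9% to 41.4% of them and is therefore rough. The study gives reads per sample only as a range over all samples, so the total of each library is unknown. mm9 positions and exons come from GENCODE M1. Alternatives covered pseudocount, filter, scaling, variance trend, the block and each library left out. The 10 chains and all gene lists were chosen with earlier results of these data known. Named in the text are the 10 chains and, from the gene lists, all called genes and some of the largest changes and highest levels. Further markers, some of them defining ones, were chosen after their values were seen. Marker lists are otherwise given by sums and counts.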

Additional observations from a re-analysis of the deposited data

How the results depend on the processing

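No integrin chain was called in the comparison as reported, nor with a pseudocount of 0.1, no filter, quantile normalization, upper-quartile scaling or any 1 library left out. Itgam was called without the variance trend (1 chain, adjusted p = 0.0472 in limma) and with the replicate block (1 chain, adjusted p = 0.0245 in limma). Same-numbered libraries deviated in opposite directions (correlation across genes -0.21), and with the crossed pairing, chosen after seeing the data, 2 chains, Itgam and Itga6, and 409 genes overall were called. Over all genes, 186 were called as reported, 266 with the replicate block and 75 without the filter, which tests more genes. Of 110 refits of the single chains over 11 alternatives 1 turned its sign, Itgb3 without WT replicate 2 (-0.012), and its range with each library left out was -0.012 to 0.41. With 2 libraries per genotype and an unknown number of fragments per gene, the precision of the low chains Itgax and Itgae cannot be stated beyond the spread shown.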

Other observations

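Markers of other B cell states and of blood cells gave the following values in the same libraries. Beside all counts of markers below, 1.70% of all genes tested were called and 13.3% had an unadjusted p under 0.05 in limma. Of 11 genes of marginal zone and B1 B cells 0 were called in limma and 6 had an unadjusted p under 0.05. Among them, Cr2, which encodes CD21 and was used in the gate, was at 102 and 116 FPKM in WT and 65.1 and 30.0 FPKM in Ets1-/- libraries, and Zbtb32 was at 1.49 and 2.15 FPKM in WT and 4.44 and 6.48 FPKM in Ets1-/- libraries. CD11b and CD11c are also carried by B cells that express the transcription factor T-bet. Of 7 tested genes of such cells 0 were called in limma and 1, Zeb2, had an unadjusted p under 0.05. Tbx21, the gene for T-bet, was at 4.14 and 5.55 FPKM in WT and 3.44 and 3.29 FPKM in Ets1-/- libraries. It was the 1 tested gene of this list that was lower without overlap, while 2 were higher and 4 overlapped. Of all genes tested, 22.2% were lower and 19.4% were higher without overlap. The part of such cells in the levels of Itgam and Itgax was not tested. Of 6 tested plasma cell genes 0 were called in limma and 2, Sdc1 and Prdm1, both higher in Ets1-/- cells, had an unadjusted p under 0.05. Without overlap 3 of the 6 were higher and 2 were lower, beside 19.4% and 22.2% of all genes tested. The 2 lower genes were Irf4 and Xbp1, with log2 fold changes of -0.85 and -0.36.

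T cell markers summed to 178 and 148 FPKM in WT and 128 and 160 FPKM in Ets1-/- libraries, and 1 of 12 was called, Thy1, which was lower in Ets1-/- cells. Erythroid markers summed to 6.85 and 4.43 FPKM in WT and 65.1 and 28.7 FPKM in Ets1-/- libraries, and 0 of 3 tested were called in limma while 3 had an unadjusted p under 0.05. Alas2 among them was tested only through its Ets1-/- level, as was Prdm1 among the plasma cell genes.

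The tested genes whose log2(FPKM + 1) values across the 4 libraries, centred on their mean, lay closest to those of Itgam by root mean square distance were 3830403N18Rik (0.0779), Dnahc8 (0.0806), Ly6k (0.0932), Tsnaxip1 (0.103) and Pde4c (0.105). For Itga6 they were A530088E08Rik (0.0501), Sfn (0.0504), Plcg1 (0.0626), Fam211a (0.0647) and Impdh1 (0.0651). Plcg1, a phospholipase of antigen receptor signaling, was at 11.4 and 9.90 FPKM in WT and 3.78 and 5.04 FPKM in Ets1-/- libraries.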
